A study of Arabidopsis thaliana with 18 samples.

Results

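Class III peroxidases are secreted heme enzymes of plants that either consume hydrogen peroxide to couple phenolics and cell wall proteins or release reactive oxygen species in the apoplast. In roots they are known for the lignin of the Casparian strip, for lignification of the vessels and for the crosslinking of extensins in growing root hairs, and in all organs for the oxidative burst that follows recognition of microbes. NADPH oxidases and superoxide dismutase supply much of the hydrogen peroxide that these enzymes use. The 58 members described here were taken by locus from a list of the peroxidase family in which a few rarely expressed genes were left out, and all 58 were present among the 27371 genes of the expression table.

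The study asked how Enterobacter sp. SA187, an endophytic bacterium of roots, changes the transcriptome of Arabidopsis thaliana Col-0 on salt. All plants were 21 days old and had grown for 16 days on 100 mM NaCl after 5 days of germination, so that the controls were salt-stressed as well. Shoots were taken from plants with no further treatment (WT), plants inoculated with SA187, plants given 100 nM ACC (1-aminocyclopropane-1-carboxylic acid, the direct precursor of ethylene) and plants given 100 nM KMBA (2-keto-4-methylthiobutyric acid, a compound that SA187 makes and that plants can turn into ethylene). Roots were taken from the ACC and the KMBA plants, which gave 6 groups of 3 biological replicates. No WT or SA187 root was analysed here, so the root comparison sets one compound against the other and has no untreated arm.

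Expression was measured in polyA RNA as FPKM, a fragment count divided by transcript length and library size. The number of reads behind a value is unknown, and the precision given is the spread between libraries. Summed FPKM per library lay between 357506 and 633792, and Pearson r between replicates, across genes, between 0.979 and 0.992 in 5 groups and between 0.937 and 0.970 in WT shoots. The organ labels held for their markers. The transcripts of the iron transporter IRT1, the nitrate transporter NRT2.1 and the tonoplast channel TIP2;3 were at most 0.0776 FPKM in the 12 shoot libraries, and carbonic anhydrase CA1 was at most 0.305 FPKM in the 6 root libraries. Chlorophyll-binding protein LHCB1.3 still reached 252 to 334 FPKM in ACC roots and 367 to 469.97 FPKM in KMBA roots, against 4746 to 11178 FPKM in shoots. The root marker PYK10 was listed at 0 in 1 KMBA root library and at 433.5 to 964.5 FPKM in the other root libraries. Each root group was sequenced in a pool and lane of its own (pool 4, lane 4 for ACC and pool 2, lane 2 for KMBA), so that compound and pool cannot be told apart in roots.

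The peroxidase family was a root family in these plants. In 47 of the 58 genes (81.0%) each of the 6 root libraries lay above each of the 6 shoot libraries with ACC or KMBA, a pattern held by 38.0% of all 27371 genes, and the same number lay above all 12 shoot libraries (32.3% of all genes). The opposite pattern was held by 4 members (6.9%), against 15.3% of all genes for the shoots with ACC or KMBA and 12.9% for all shoots. The remaining 7 members overlapped between organs. In bulk samples more cells of a type and more RNA per cell cannot be told apart, and organ and sequencing pool were split as well.

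The summed FPKM of the family was 3427 ± 194 in ACC roots and 2907 ± 224 in KMBA roots (SD, n = 3), and between 701 and 740 in the means of the shoot groups. In shoots 2 genes made up most of this sum. PRXR1 (AT4G21960) and AT3G28200 together held 81.0% of it in WT shoots, 83.8% in SA187 shoots, 82.8% in KMBA shoots and 81.0% in ACC shoots, whereas the top pair held 32.0% in ACC roots and 28.8% in KMBA roots. The number of members with a group mean of at least 1 FPKM was 18 to 20 in shoots and 50 to 51 in roots, and 23 members passed a mean of 50 FPKM in ACC roots against 17 in KMBA roots.

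**Figure D1:**
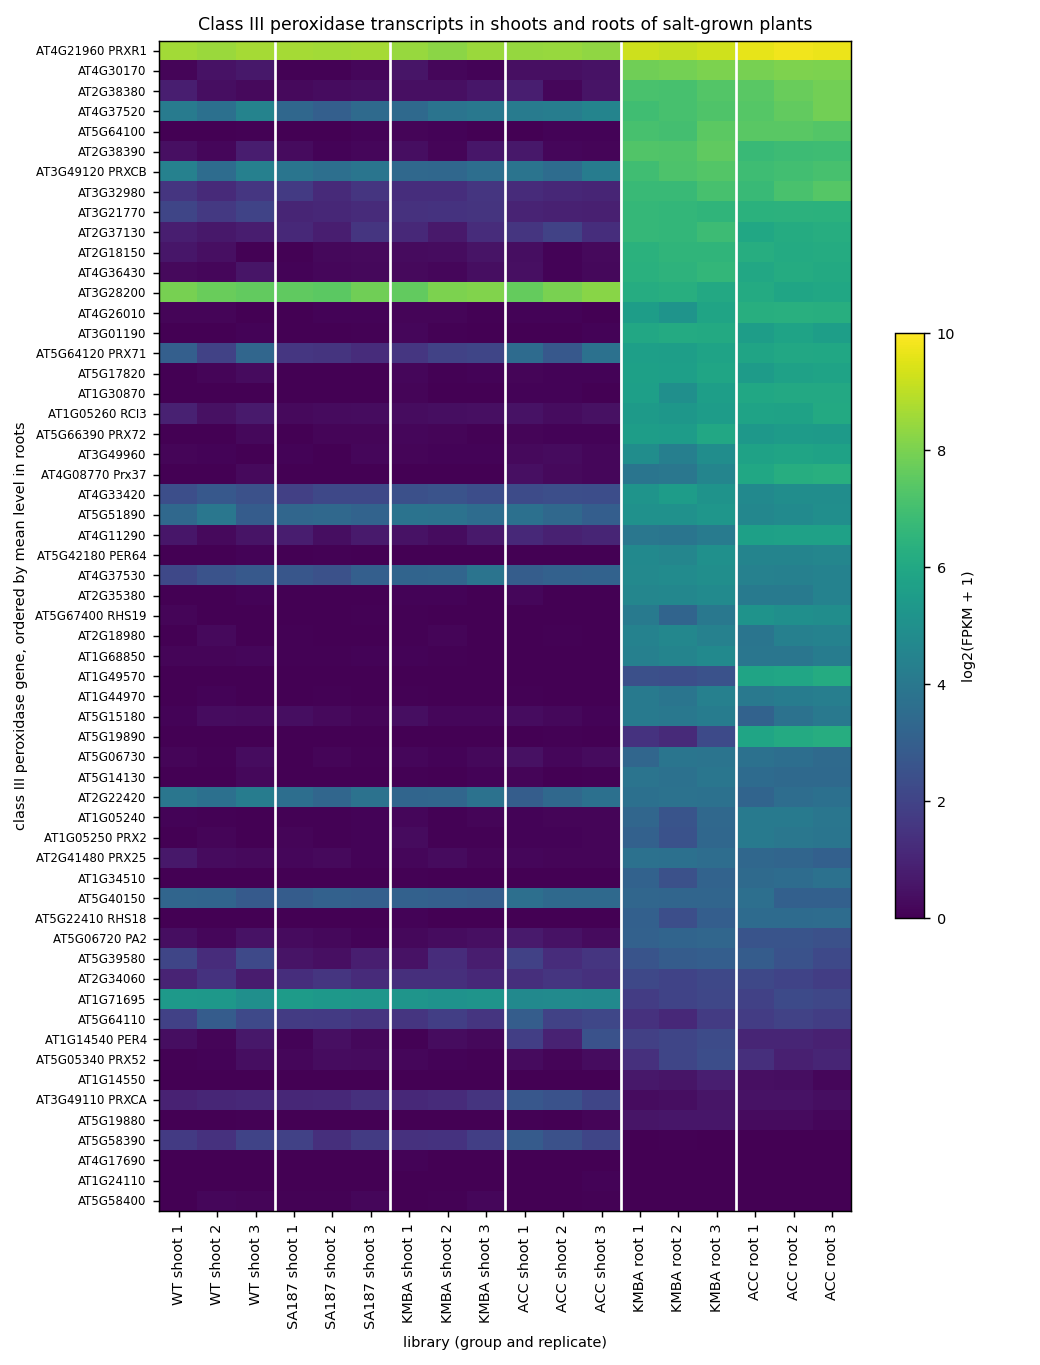
The heat map shows log2(FPKM + 1) of each of the 58 class III peroxidase genes (rows, ordered by mean level in roots) in each of the 18 libraries (columns, by group and replicate). PRXR1 in the top row is high in every library, most rows are dark in the 12 shoot libraries and bright in the 6 root libraries, and AT3G28200 and AT1G71695 show the reverse.

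By position the family was spread over all chromosomes of the RefSeq annotation of TAIR10.1, with 12 members on chromosome 1, 9 on chromosome 2, 7 on chromosome 3, 10 on chromosome 4 and 20 on chromosome 5. Coding sequences were between 933 and 1119 bases long, and 38 members had 4 exons. The 4 members with 1 exon were AT1G24110, AT3G28200, AT4G17690 and AT5G40150. Of these, AT3G28200 was among the leading shoot transcripts, AT5G40150 was level between organs, and AT1G24110 and AT4G17690 did not exceed 0.0803 FPKM in any library.

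PRXR1 (chr4:11646109-11648644, minus strand, 4 exons) was the most abundant member in both organs. Its level ran from 306 to 404 FPKM in the 12 shoot libraries, with a median of 359.8. In KMBA roots it was 599.8, 559.9 and 618 FPKM, and in ACC roots 791, 881 and 844 FPKM. The root libraries were all above the shoot libraries, and the ACC roots all above the KMBA roots. Roots exceeded shoots by 1.31 (SE 0.09, adjusted p = 3.96e-08) on the log2(FPKM + 1) scale with ACC, a change past 2-fold, and by 0.81 (SE 0.09, adjusted p = 3.99e-06) with KMBA.

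Other abundant root members were almost absent from shoots. AT4G30170 had a lowest, median and highest value of 229, 252 and 267 FPKM in the 6 root libraries and of 0.0343, 0.228 and 0.558 FPKM in the 12 shoot libraries. AT5G64100 had 128, 167 and 176 FPKM in roots and at most 0.0946 FPKM in shoots. AT2G38380 had 136, 165 and 233 FPKM in roots, and its neighbour AT2G38390 had 108, 134 and 189 FPKM, with highest shoot values of 0.792 and 0.743 FPKM. For these 4 genes no shoot library came near a root library. On the log2(FPKM + 1) scale they rose in roots by 7.58, 7.35, 7.17 and 6.52 with ACC and by 7.66, 7.10, 6.70 and 6.99 with KMBA, in the order named, with SE of at most 0.15. AT4G36430 (62.4, 74.5 and 98.5 FPKM in roots, at most 0.478 FPKM in shoots) and AT2G18150 (67.8, 77.7 and 91.9 FPKM in roots, at most 0.506 FPKM in shoots) completed the 6 largest rises by the mean of both compounds. With ACC alone AT4G26010 (6.22), AT5G19890 (6.04) and AT1G49570 (5.97) rose by more than either.

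Not every abundant root peroxidase was restricted in this way. AT4G37520 had 123, 158 and 230 FPKM in roots as lowest, median and highest value and 7.22, 14.2 and 22.1 FPKM in shoots. PRXCB (AT3G49120), one of the genes behind the apoplastic oxidative burst, had 117, 129.9 and 159 FPKM in roots and 9.01, 12.5 and 19.8 FPKM in shoots. AT3G32980 had 108, 123 and 163 FPKM in roots and 1.06, 1.46 and 2.28 FPKM in shoots. In these 3 genes the organs still did not overlap. AT5G51890, a gene tied to lignification of tracheary elements, was closer between organs, with 23.5 to 37.4 FPKM in roots and 6.56 to 14.5 FPKM in shoots.

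The shoot-preferring members were few. AT3G28200 ran from 179.9 to 298 FPKM in shoots and from 58.0 to 76.4 FPKM in roots, and fell in roots by 1.97 (SE 0.16) with ACC and by 1.75 (SE 0.16) with KMBA on the log2(FPKM + 1) scale. AT1G71695 ran from 25.7 to 43.5 FPKM in shoots and from 2.40 to 3.76 FPKM in roots, and fell by 2.65 (SE 0.10) and 3.20 (SE 0.10). AT5G58390 was listed at 0 in all 3 ACC root libraries, reached 0.0516 FPKM in KMBA roots and ran from 1.53 to 6.27 FPKM in shoots. PRXCA (AT3G49110), the close copy of PRXCB that acts in the same oxidative burst, ran from 0.921 to 5.63 FPKM in shoots and from 0.260 to 0.500 FPKM in roots, so that the neighbouring copies had opposite organ preferences. In each of these 4 genes all shoot libraries lay above all root libraries.

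Members that overlapped between organs included AT2G22420, which acts in lignified tissues and ran from 6.81 to 17.5 FPKM in shoots and from 8.41 to 12.7 FPKM in roots. AT5G40150 ran from 6.13 to 11.4 FPKM in shoots and from 7.30 to 11.5 FPKM in roots. AT5G64110 ran from 1.89 to 6.78 FPKM in shoots and from 1.23 to 2.96 FPKM in roots, although both of its neighbours, AT5G64100 and PRX71 (AT5G64120), were root transcripts.

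The organ difference was also tested with limma on log2(FPKM + 1), for the 53 members with at least 1 FPKM in at least 3 of the 12 libraries of the fit, where a call needed both an adjusted p under 0.05 and more than a 2-fold change. With ACC, 42 members were called higher in roots, where 22.7% of 18357 tested genes were, and 4 lower, where 13.9% were. With KMBA, 44 members were called higher (24.7% of tested genes) and 3 lower (13.5%). A member high in one organ passed the filter through that organ, so the counts describe the tested genes only. AT1G14550, AT1G24110, AT4G17690, AT5G19880 and AT5G58400 stayed under the filter. After median-ratio scaling the median change of all genes moved by -0.35 with ACC and by -0.39 with KMBA, and the split of all calls changed from 4165 higher and 2553 lower to 3029 and 3171 with ACC and from 4537 and 2477 to 3326 and 3184 with KMBA. PRXR1 and AT4G37530 with ACC, and AT4G37530 and AT5G51890 with KMBA, then fell under the 2-fold limit, and no called member changed direction.

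By role, all 8 members of the root hair group (AT1G05240, AT1G30870, AT1G34510, AT3G49960, AT4G26010, AT5G17820, RHS18 and RHS19) were called higher in roots with both compounds. Their summed level was 312 ± 6.73 FPKM in ACC roots and 199.9 ± 39.4 FPKM in KMBA roots, and at most 0.704 FPKM in any shoot library. Of the 15 members of the Casparian strip and lignification group, 12 were called higher in roots with ACC and 14 with KMBA, and none lower. Over all tested genes 22.7% were called higher and 13.9% lower with ACC, and 24.7% and 13.5% with KMBA. PER64 (AT5G42180), which polymerises lignin in the Casparian strip, ran from 21.6 to 31.7 FPKM in roots and was listed at 0 in 8 of the 12 shoot libraries. PRX72 (AT5G66390), another lignin peroxidase, ran from 39.3 to 62.6 FPKM in roots and to at most 0.149 FPKM in shoots. In the oxidative burst and defense group of 8, 7 of them tested, 4 were called higher and 1 (PRXCA) lower with ACC, and 6 higher and none lower with KMBA.

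The second question was whether ACC and KMBA, both routes to ethylene, left the same peroxidase levels in roots. They did not for a small set of genes, led by AT5G19890 and AT1G49570, which were expressed in both but far higher in ACC roots. Of the 51 members tested, all of which reached 1 FPKM in at least 1 library of each root group, 6 were called higher in ACC roots and 1 lower, 11.8% and 1.96% of those tested, while 0.571% of 17169 tested genes were called higher and 0.687% lower. The family as a whole did not lean to one side: 23 tested members were above 0 and 28 below, and their median change was -0.08, beside 0.0046 for all tested genes. At adjusted p under 0.05 and any fold, 14 members were higher (6.79% of all tested genes were) and 14 lower (9.40%). Over all 58 members, 18 had every ACC root library above every KMBA root library (31.0%, against 15.3% of all genes in the table) and 19 the reverse (32.8%, against 14.0%). These shares carry the pool difference as well as the compound. All 3 shoot markers were lower in each ACC root library than in any KMBA root library (RBCS1A, for instance, at 85.2 to 132 FPKM against 195 to 213 FPKM). The root marker TIP2;3 was lower as well (28.7 to 41.5 FPKM against 55.5 to 63.2 FPKM), while IRT1 overlapped. Of the 4 root markers 2 had positive and 2 negative changes, with a median of -0.07. The part of these marker differences in the results was not tested.

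**Figure D2:**
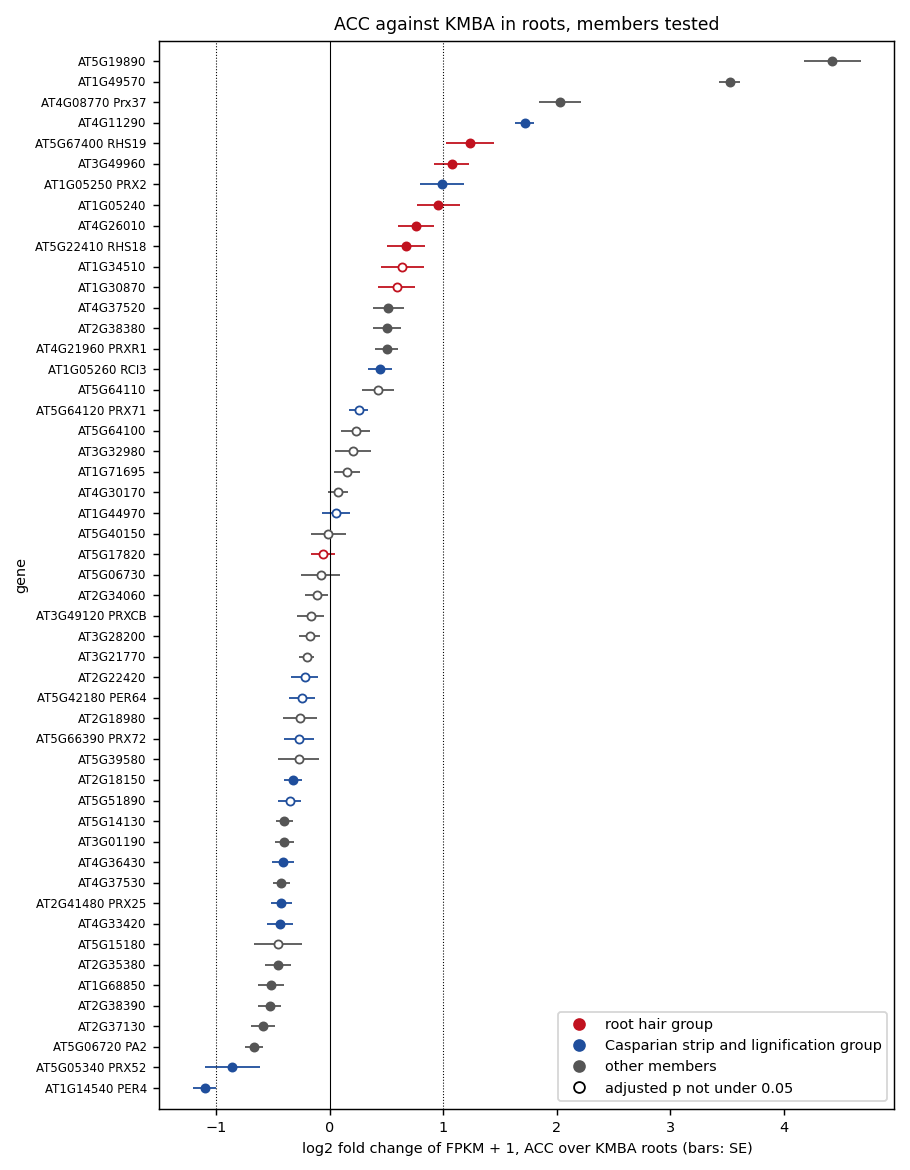
Each row is 1 of the 51 members tested, and the point gives the log2 fold change of FPKM + 1 in ACC over KMBA roots with its standard error (3 libraries a group). Filled points passed adjusted p under 0.05, dotted lines mark a 2-fold change, and colours give the role group: AT5G19890 (4.43) and AT1G49570 (3.52) stand far to the right, the root hair group lies right of 0 except AT5G17820, and PER4 (-1.11) is the lowest.

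AT5G19890 (chr5:6724076-6725966, minus strand, 4 exons) showed the largest difference. It measured 57.4, 67.6 and 73.1 FPKM in the ACC roots and 1.74, 1.28 and 3.74 FPKM in the KMBA roots. The groups did not overlap, and the lowest ACC library was far above the highest KMBA library. The mean of 66.0 ± 7.99 FPKM against 2.25 ± 1.31 FPKM (SD, n = 3) corresponds to 29.3-fold in FPKM and to a log2 change of 4.43 (SE 0.25, adjusted p = 0.000517) on the log2(FPKM + 1) scale. In shoots it was at most 0.0318 FPKM.

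AT1G49570 (chr1:18346958-18349049, plus strand, 4 exons) followed the same pattern. It measured 56.5, 59.6 and 70.0 FPKM in ACC roots and 4.41, 4.28 and 4.68 FPKM in KMBA roots, and it was listed at 0 in all 12 shoot libraries. The KMBA libraries were tightly grouped and lay well under all ACC libraries. The log2 change was 3.52 (SE 0.09, adjusted p = 1.47e-05), and the ratio of the FPKM means was 13.9. Across the 18 libraries AT1G49570 was also the member whose log2(FPKM + 1) was most like that of AT5G19890 (Pearson r = 0.987), before PRXR1 (r = 0.932) and Prx37 (r = 0.930). These r values carry no test, and the points share the split between organs.

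The bases upstream of the annotated starts of this pair are shown because the genes moved together, and because the ethylene response factors that act late in ethylene signaling are known to bind a GCC box. From RefSeq, TAIR10.1, the 150 bases before each start read as follows (chr5:6725967-6726116, minus strand, and chr1:18346808-18346957, plus strand), with the GCC box GCCGCC in capitals.
AT5G19890: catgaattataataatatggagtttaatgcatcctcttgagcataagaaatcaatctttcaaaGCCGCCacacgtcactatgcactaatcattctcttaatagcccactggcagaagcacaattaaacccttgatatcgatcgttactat
AT1G49570: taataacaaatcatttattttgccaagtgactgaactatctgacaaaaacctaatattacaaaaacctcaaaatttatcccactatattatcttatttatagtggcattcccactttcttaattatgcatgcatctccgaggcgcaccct
The box lay 87 to 82 bases before the start of AT5G19890, and AT5G19890 was the 1 member of 58 with these letters on either strand of the 500 bases upstream, where 4.11% of 26693 promoters held them. AT1G49570 held none in that window. The binding site of EIN3, the transcription factor upstream of these response factors, was searched as ATGTATCT in the same windows and was held by 2.73% of promoters and by 4 members (PRX2, AT2G22420, AT3G32980 and AT5G51890), neither of the pair among them. A match is a string of letters, and no binding was measured.

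Prx37 (AT4G08770), a peroxidase of vascular bundles whose overexpression is known to dwarf plants, measured 61.3, 73.5 and 78.2 FPKM in ACC roots and 13.9, 14.4 and 22.5 FPKM in KMBA roots. The groups did not overlap, and the log2 change was 2.03 (SE 0.18, adjusted p = 0.00138). AT4G11290, one of the peroxidases that lignify the Casparian strip, measured 50.9, 51.4 and 52.5 FPKM in ACC roots and 14.5, 13.8 and 16.9 FPKM in KMBA roots. Its ACC libraries were nearly identical and all above the KMBA libraries, with a log2 change of 1.72 (SE 0.08, adjusted p = 0.000314).

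In the root hair group 2 of 8 members were called higher in ACC roots (0.571% of all tested genes were) and none lower (0.687%). Of the 8 changes 7 were positive, and the median change was 0.71, beside 0.0046 for all tested genes. RHS19 (AT5G67400), which promotes root hair growth, measured 34.2, 30.3 and 29.0 FPKM in ACC roots and 15.8, 8.34 and 15.2 FPKM in KMBA roots (log2 change 1.23, SE 0.21, adjusted p = 0.0113). AT3G49960 measured 52.9, 55.6 and 53.7 FPKM in ACC roots and 28.6, 19.0 and 29.3 FPKM in KMBA roots (log2 change 1.07, SE 0.16, adjusted p = 0.0060). In both genes the groups did not overlap, and KMBA root replicate 2 was the lowest library. Without that library the log2 changes were 0.96 and 0.88 and both calls were lost, although the adjusted p stayed under 0.05. The same replicate was the lowest KMBA root library in all 8 genes of the group.

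Other root hair members changed by less than 2-fold. AT4G26010, an extensin-crosslinking peroxidase of root hairs, was 76.8 FPKM in ACC and 45.9 FPKM in KMBA roots on average, a log2 change of 0.76 (adjusted p = 0.020). RHS18 (AT5G22410) changed by 0.67 (adjusted p = 0.0343). AT1G34510 and AT1G30870 had changes of 0.64 and 0.59 with adjusted p of 0.0586 and 0.0529, and AT5G17820 had a change of -0.06. Outside the family, the 8 other root hair genes on a companion list had 7 positive changes. None passed 2-fold at adjusted p under 0.05, where 0.571% of all tested genes were called higher and 0.687% lower. PRP3, a cell wall protein of root hairs, had a log2 change of 0.76, the cell wall receptor-like LRX1 one of 0.70 and the expansin EXPA18 one of 0.60.

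The root hair element, a short motif of promoters active in root hair cells, was searched by its published form on both strands of the 500 bases upstream. It was held by 1.47% of 26693 promoters and by 4 members, namely AT2G35380, AT3G01190, RHS18 and RHS19. The stretches around it are shown for the named root hair genes, with the element in capitals (RefSeq, TAIR10.1, chr5:7426198-7426253 and chr5:26894338-26894394, both plus strand).
RHS18: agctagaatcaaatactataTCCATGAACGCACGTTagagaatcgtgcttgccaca
RHS19: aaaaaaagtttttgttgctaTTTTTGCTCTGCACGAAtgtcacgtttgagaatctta
Of the 4 genes, RHS18 and RHS19 were higher in ACC roots at adjusted p under 0.05, whereas AT2G35380 and AT3G01190 were lower (-0.46 and -0.40).

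AT1G05240, a root hair peroxidase, and PRX2 (AT1G05250), a lignin peroxidase, are neighbours on chromosome 1 with identical coding sequences. They share a transcript run of 1492 bases, and reads within it cannot be assigned to either gene. The annotated transcript of AT1G05240 has 2478 bases, whereas that of PRX2 lies wholly within the run. The former was listed at 16.6, 16.0 and 14.2 FPKM in ACC roots and at 8.85, 5.12 and 9.29 FPKM in KMBA roots. The latter was listed at 16.0, 14.8 and 13.8 FPKM and at 7.65, 4.76 and 9.26 FPKM. Both sets did not overlap between compounds, and the changes of 0.96 and 0.99 stayed just under 2-fold on the log2(FPKM + 1) scale, with adjusted p of 0.0178 and 0.017.

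**Figure D3:**
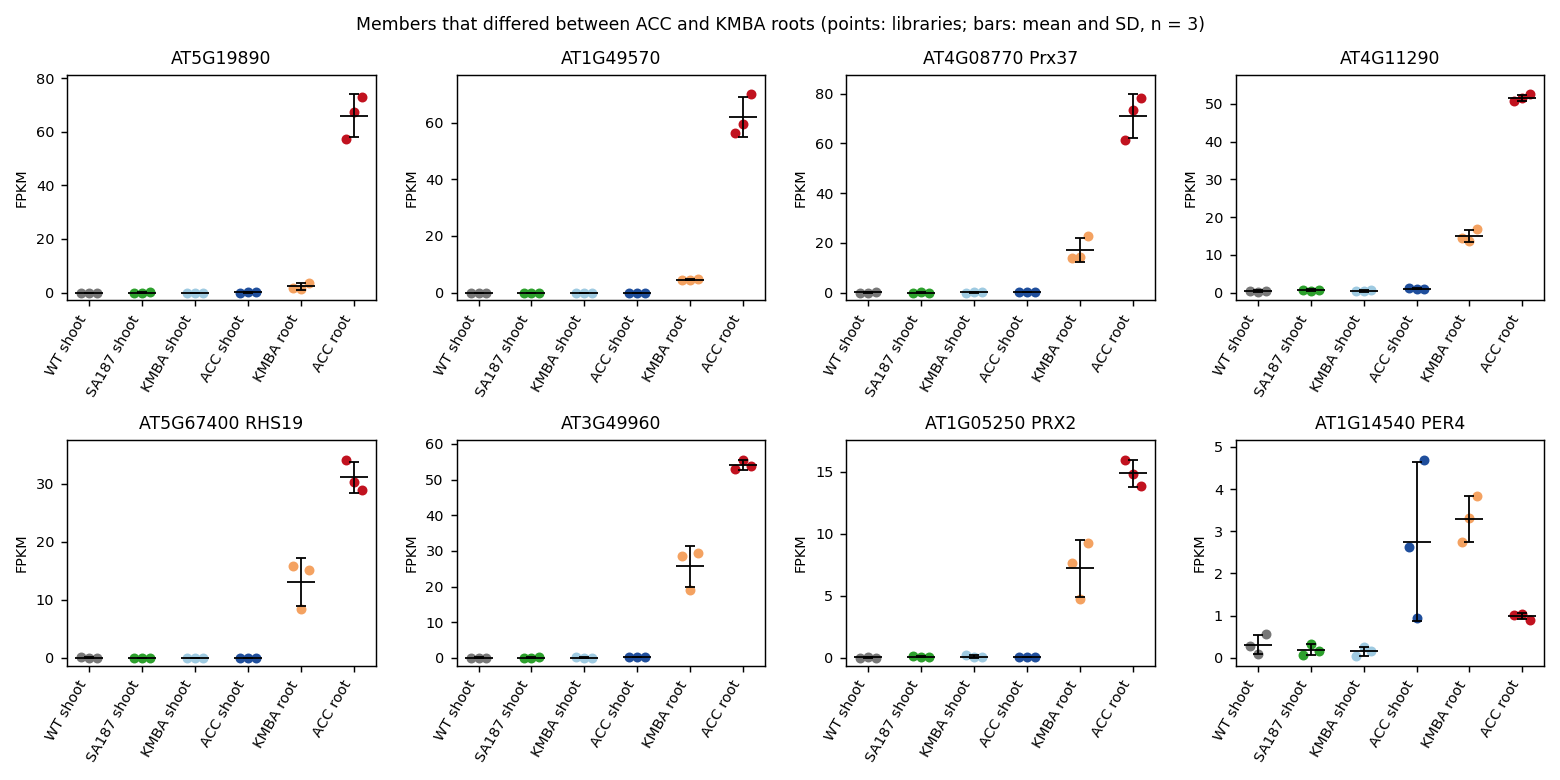
Each panel plots the FPKM of 1 gene in the 3 libraries of each of the 6 groups, with bars for the mean and SD on a linear axis. The first 7 genes are near 0 in shoots and higher in ACC than in KMBA roots in every library, whereas PER4 is near 1 FPKM in ACC roots, between 2.75 and 3.83 FPKM in KMBA roots, and up to 4.70 FPKM in ACC shoots.

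Among the 15 genes of the Casparian strip and lignification group, 1 was called higher (AT4G11290) and 1 lower (PER4), beside 0.571% and 0.687% of all tested genes. In this group 10 changes were negative, with a median of -0.27, beside 0.0046 for all tested genes. PER4 (AT1G14540), which is known from responses to microbial elicitors, measured 1.03, 1.03 and 0.901 FPKM in ACC roots and 2.75, 3.30 and 3.83 FPKM in KMBA roots. The groups did not overlap and the log2 change was -1.11 (SE 0.10, adjusted p = 0.00153), at levels near the filter. PRX52 (AT5G05340), which acts in lignin synthesis, measured 1.53, 0.858 and 1.07 FPKM in ACC roots and 1.65, 3.27 and 4.11 FPKM in KMBA roots, with 1 KMBA library close to the highest ACC library (log2 change -0.86, adjusted p = 0.0497). Smaller changes with adjusted p under 0.05 were found for PRX25 (-0.43), AT4G33420 (-0.44), AT4G36430 (-0.41) and AT2G18150 (-0.33), and in the other direction for RCI3 (0.44), the cold-induced peroxidase AT1G05260. PER64 and PRX72 had changes of -0.25 and -0.27 that did not pass.

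Of the oxidative burst and defense group, 6 of 8 members were tested in roots, and PER4 was the only one called. PA2 (AT5G06720) was lower in ACC roots by less than 2-fold, with 5.02, 5.00 and 4.51 FPKM against 7.59, 8.44 and 8.94 FPKM (log2 change -0.67, adjusted p = 0.00328). AT2G37130, outside these groups, measured 61.5, 70.2 and 75.1 FPKM in ACC roots and 101, 96.1 and 115 FPKM in KMBA roots, with no overlap (log2 change -0.59, adjusted p = 0.0121).

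The partners of the family were given the same test. Of all 17169 tested genes 0.571% were called higher and 0.687% lower, with a median change of 0.0046. The absence of a call in lists this short therefore says little. Of 10 NADPH oxidase genes, 7 were tested and 1 was called higher in ACC roots, RBOHB with 11.5 ± 0.681 FPKM against 4.43 ± 0.999 FPKM (SD, n = 3; log2 change 1.22, SE 0.13, adjusted p = 0.00252). RBOHD, the oxidase of immune signaling, had a change of 0.18 and RBOHE one of 0.14, with adjusted p of 0.120 and 0.303. Of 9 genes of the Casparian strip machinery 7 were tested and none was called, with 5 negative changes, and the receptor kinase SGN3 had the lowest p (-0.33, adjusted p = 0.0261). Of 17 genes of lignin monomer synthesis 16 were tested and none was called, with 11 negative changes, among them 4CL3 (-0.95), PAL2 (-0.71) and PAL4 (-0.49) at adjusted p of 0.00567, 0.00333 and 0.00792. All 3 laccases had negative changes under 2-fold (LAC17 -0.51, adjusted p = 0.0101). UPB1, a transcription factor known to repress peroxidase genes in the root tip, was 61.1 ± 6.85 FPKM in ACC roots and 37.8 ± 2.43 FPKM in KMBA roots (log2 change 0.67, adjusted p = 0.00586).

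Neighbouring copies did not always move together. The members formed 9 clusters of neighbours with 20 genes. Over all 1653 pairs of members the median identity of the coding sequences was 52.8%, and 4 pairs passed 85%, all of them neighbours. AT2G38380 and AT2G38390 are 90.6% identical and share no transcript run over 62 bases. AT2G38380 measured 173, 212 and 233 FPKM in ACC roots and 139, 136 and 158 FPKM in KMBA roots. AT2G38390 measured 108, 114 and 117 FPKM in ACC roots and 154, 150.4 and 189 FPKM in KMBA roots. Thus the first was higher and the second lower with ACC, in each case with no overlap (log2 changes 0.50 and -0.53, adjusted p = 0.0361 and 0.0166).

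The ratio of AT2G38380 to AT2G38390 within a library was 1.60, 1.86 and 1.99 in ACC roots and 0.902, 0.905 and 0.835 in KMBA roots, a difference of 1.04 on the log2 scale. For AT4G37520 and AT4G37530, which are 92.4% identical with no shared run over 67 bases, the ratio was 8.19, 9.83 and 11.1 in ACC roots and 4.83, 4.89 and 5.09 in KMBA roots, a difference of 0.96. Both ratios were separate between compounds. The 2-sided exact permutation test gave p = 0.1 for each of the 2 pairs, which is the smallest value that 3 against 3 libraries allow. That value follows from the separation, so the test adds nothing to it. It was not among the planned tests. The other pairs over 85% identity, PRXCA with PRXCB and AT1G05240 with PRX2, were not tested in this way.

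Reads that cover differing bases can be assigned to 1 copy. To show how far the copies can be told apart, the 90-base coding stretch within 1 exon with most differences is given for each pair, with differing bases in capitals (17 in the first pair, 26 in the second). The stretches are from RefSeq, TAIR10.1, all on the plus strand, at chr2:16078018-16078107, chr2:16081085-16081174, chr4:17632313-17632402 and chr4:17635415-17635504.
AT2G38380: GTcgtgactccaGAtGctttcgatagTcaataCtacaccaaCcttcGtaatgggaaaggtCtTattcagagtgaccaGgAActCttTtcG
AT2G38390: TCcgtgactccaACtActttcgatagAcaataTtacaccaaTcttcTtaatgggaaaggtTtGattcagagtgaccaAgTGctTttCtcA
AT4G37520: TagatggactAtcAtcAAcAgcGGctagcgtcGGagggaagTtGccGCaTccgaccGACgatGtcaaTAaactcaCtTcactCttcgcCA
AT4G37530: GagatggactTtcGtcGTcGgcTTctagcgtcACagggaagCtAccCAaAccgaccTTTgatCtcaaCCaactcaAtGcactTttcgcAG
The sources used here do not say how reads matching both copies were treated, and the split between copies is uncertain to that extent.

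Clusters could also hold 1 active and 1 nearly silent gene. AT5G19880, the neighbour of AT5G19890 at a distance of 1598 bases, measured 0.222, 0.234 and 0.138 FPKM in ACC roots and 0.468, 0.535 and 0.519 FPKM in KMBA roots. It was lower with ACC in every library, and it stayed under the filter. In the PRXCA and PRXCB pair (90.4% identical, longest shared run 111 bases) the ACC roots held 0.421, 0.399 and 0.300 FPKM of PRXCA and 117, 123 and 136 FPKM of PRXCB.

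**Figure D4:**
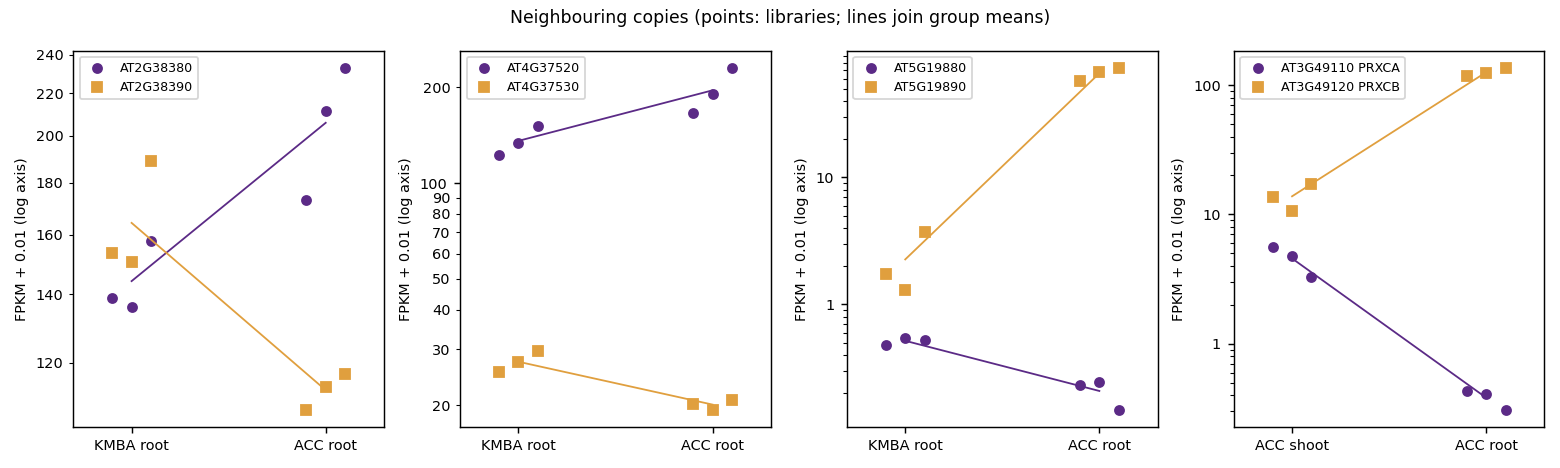
Each panel plots 2 neighbouring members in the 3 libraries of 2 groups on a log axis of FPKM + 0.01, with lines joining group means. AT2G38380 and AT4G37520 are higher and their neighbours lower in ACC than in KMBA roots, AT5G19890 and AT5G19880 move apart, and PRXCA falls from ACC shoots to ACC roots while PRXCB rises.

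The effect of ACC against KMBA was then compared between organs in 1 fit. In this test 6 members were called with a more positive difference in roots than in shoots (0.621% of 18357 tested genes) and 5 with a more negative one (1.67%). The positive set was AT5G19890, AT1G49570, Prx37, RHS19, AT4G11290 and PRX2, whose highest values in any shoot library were between 0 and 1.23 FPKM. These genes passed the filter through roots. Their values therefore largely repeat the root difference and cannot show that the compound effect differs between organs. The negative set was PER4, PRX71, AT2G37130, PRXCA and PRX52. PER4 had the largest value of these, -2.68 (SE 0.39, adjusted p = 0.00177), with 2.62, 0.946 and 4.70 FPKM in ACC shoots and at most 0.262 FPKM in KMBA shoots, the reverse of its order in roots. PRX52 passed the filter through roots (at most 0.296 FPKM in any shoot library) and PRXCA through shoots (at most 0.500 FPKM in roots). The values of both largely repeat the difference in 1 organ and cannot show that the compound effect differs between organs. With a pseudocount of 0.1, the differences of Prx37 and AT4G11290 fell to 0.63 and 0.59 and their calls were lost (adjusted p = 0.283 and 0.226), and PRX2, at 1.20, lost its call as well (adjusted p = 0.109). PRX2 cannot be separated from AT1G05240, which had a difference of 0.95 and was not called. PRX52 kept its call in 6 of 17 alternatives, and lost it without a filter (adjusted p = 0.0604), after median-ratio scaling (-0.99) and in 9 of the 12 fits without 1 library (-0.81 to -1.05). PRX2 lost its call in 5 alternatives and PRX71 in 4. Without ACC shoot replicate 1 the calls of PRXCA (-0.98) and PRX71 (-1.10, adjusted p = 0.0537) were lost, without ACC shoot replicate 2 that of AT2G37130 (-0.999), and without KMBA root replicate 2 those of RHS19 (0.97) and PRX2 (0.78). AT5G19890, AT1G49570 and PER4 kept theirs in all 17.

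In shoots only 19 members passed the filter, and few of them changed. The comparisons of SA187, KMBA and ACC with WT share the WT libraries. PRXCA was the 1 tested member that rose by more than 2-fold with ACC. It measured 5.63, 4.76 and 3.30 FPKM in ACC shoots, 0.921, 1.08 and 1.22 FPKM in WT shoots and 1.24, 1.34 and 1.84 FPKM in KMBA shoots. The ACC libraries lay above all others, by a log2 change of 1.40 (SE 0.16, adjusted p = 0.000211) over WT and of 1.15 (SE 0.16, adjusted p = 0.0041) over KMBA. It was the 1 member called higher against WT (1.98% of 15724 tested genes), and none was called lower (2.91%). An unadjusted p under 0.05 was held by 7119 of the 15724 tested genes and by 8 of the 19 tested members. At adjusted p under 0.05 and any fold, 4 members were higher (20.3% of tested genes), namely PRXCA, AT2G37130, AT5G58390 and AT5G40150, and 3 lower (13.2%). PER4, which stayed under the filter in shoots and was not tested, measured 2.62, 0.946 and 4.70 FPKM with ACC and 0.288, 0.102 and 0.555 FPKM in WT, with no overlap. The coding sequence of PRXCA is close to that of PRXCB. The latter measured 13.5, 10.7 and 17.2 FPKM in ACC shoots and 19.8, 10.6 and 19.7 FPKM in WT shoots, with overlap.

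PRX71 (AT5G64120), which is known to stiffen cell walls and restrict growth, varied widely in the shoots. It measured 7.24, 2.92 and 8.73 FPKM in WT, 1.99, 1.87 and 1.39 FPKM in SA187, 2.03, 2.92 and 3.25 FPKM in KMBA and 10.4, 5.71 and 12.3 FPKM in ACC shoots. The SA187 libraries were all below the WT libraries (log2 change -1.31, SE 0.32, adjusted p = 0.0351), and the ACC libraries all above the KMBA libraries (log2 change 1.45, SE 0.32, adjusted p = 0.0381). With PRXCA it made up the 2 members called higher in ACC than in KMBA shoots (0.502% of tested genes), and none was called lower (0.293%). An unadjusted p under 0.05 was held by 2573 of the 15724 tested genes and by 10 of the 19 tested members. At any fold, 2 were higher (1.47%) and 1, AT3G21770, lower (0.903%) at adjusted p under 0.05. With the sequencing pool as a covariate the difference between ACC and KMBA kept its size, 1.44, and its adjusted p was 0.0712. Leaving out any 1 library other than WT replicate 2, WT replicate 3 or ACC replicate 2 also ended this call, with an adjusted p of up to 0.158.

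AT5G39580, a peroxidase that also acts in root hair growth at low temperature, measured 3.21, 1.44 and 3.58 FPKM in WT, 0.427, 0.319 and 0.775 FPKM in SA187, 0.403, 1.43 and 0.741 FPKM in KMBA and 2.78, 1.43 and 1.91 FPKM in ACC shoots. The SA187 libraries lay below all WT libraries, with a log2 change of -1.27 (SE 0.26, adjusted p = 0.0239). This gene and PRX71 were the 2 members called lower with SA187 (1.38% of tested genes), and none was called higher (0.235%). An unadjusted p under 0.05 was held by 4125 of the 15724 tested genes and by 6 of the 19 tested members. At any fold, 5 were lower (4.38%) and none higher (1.70%) at adjusted p under 0.05. WT replicate 2 was the lowest WT library in both genes. PRX71 lost its call without SA187 replicate 1 (adjusted p = 0.0579) or KMBA replicate 2 (adjusted p = 0.0538) as well. Without WT replicate 1, WT replicate 3, SA187 replicate 2 or SA187 replicate 3 neither was called, without WT replicate 2 a total of 3 members were, and in a fit of the SA187 and WT groups alone the adjusted p was 0.0799 for AT5G39580 and 0.109 for PRX71. Calls over all tested genes moved as well, from 254 to 725 without WT replicate 2 and to 10 in the fit of the SA187 and WT groups alone. Without WT replicate 1, WT replicate 3, SA187 replicate 2 or SA187 replicate 3 they were 53, 101, 48 and 12.

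AT3G21770 was lower than WT in all 3 treated shoot groups. It measured 3.27, 2.16 and 3.01 FPKM in WT, 1.07, 1.18 and 1.35 FPKM in SA187, 1.70, 1.78 and 1.83 FPKM in KMBA and 0.975, 0.906 and 0.846 FPKM in ACC shoots. No treated library reached the lowest WT library, and the log2 changes were -0.79 (adjusted p = 0.0101), -0.45 (adjusted p = 0.0227) and -0.99 (adjusted p = 0.000265), all under 2-fold on this scale. Of these, the ACC shoots were also below the KMBA shoots (-0.54, adjusted p = 0.0351). In roots the gene held 81.7 to 98.9 FPKM.

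With KMBA no member was called against WT in either direction (0.655% of tested genes were higher and 2.43% lower). An unadjusted p under 0.05 was held by 5922 of the 15724 tested genes and by 7 of the 19 tested members. At any fold, 1 was higher (9.50%) and 2 lower (11.0%) at adjusted p under 0.05. The nearest were AT5G39580 (-0.995, adjusted p = 0.0235), just inside 2-fold, and AT4G37530, which was 8.39, 8.68 and 13.4 FPKM with KMBA and 3.55, 4.90 and 5.92 FPKM in WT (log2 change 0.94, adjusted p = 0.0119, no overlap). AT2G37130 had a change of 0.87 (adjusted p = 0.0095) with ACC against WT, at 1.91, 2.98 and 1.51 FPKM against 0.769, 0.561 and 0.729 FPKM.

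**Figure D5:**
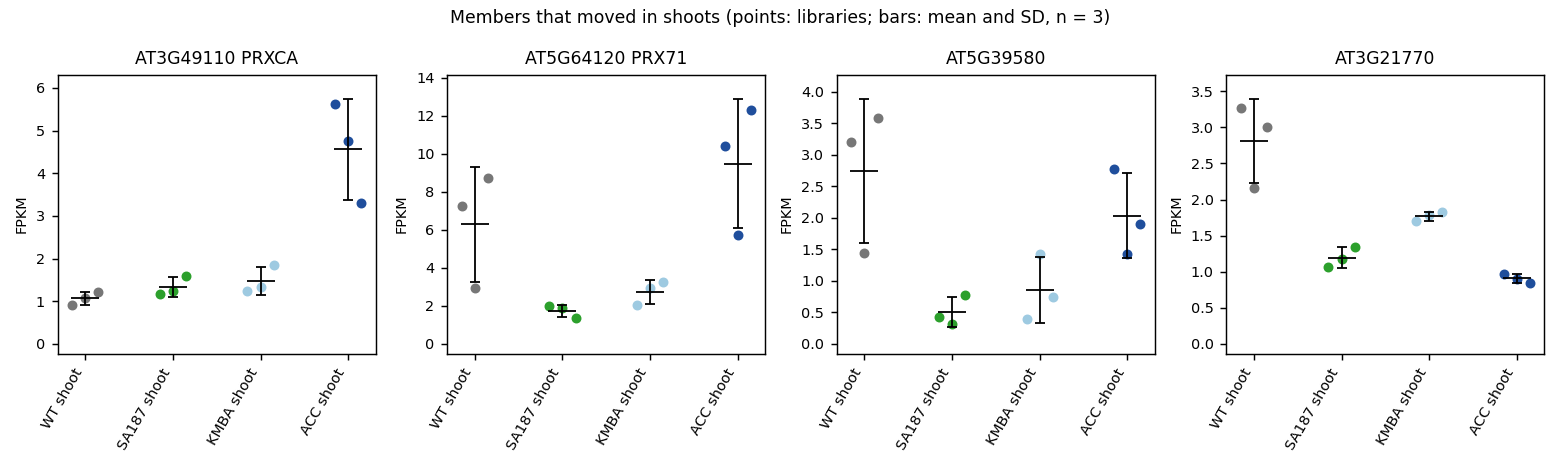
The 4 panels plot FPKM on linear axes in the 3 libraries of each shoot group, with bars for the mean and SD. PRXCA is high in the ACC shoots alone, and AT3G21770 is highest in WT. PRX71 and AT5G39580 are low with SA187, low on average with KMBA as well, and spread widely in WT.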

How the data were processed

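PolyA RNA of 12 shoot and 6 root libraries was sequenced by the authors. Per the submitters' processing notes, FastQC 0.11.5, Trimmomatic 0.36, TopHat, featureCounts 1.5.1, Cufflinks 2.2.1 and Cuffdiff were used with the TAIR10 genome. The FPKM values deposited by the authors hold 1 value per gene and library. No scaling between libraries is given in the sources used here, nor whether strand was used. FPKM keeps no read depth, so no counting interval was given.

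Samples were grouped by their labels. A gene entered a fit if 3 or more of its libraries had 1 FPKM or more. Values were compared as log2(FPKM + 1), which understates the changes of low genes, with limma 3.58.1 in R 4.3.3 (eBayes with a trend, 2-sided, Benjamini-Hochberg over all tested genes). Calls needed adjusted p under 0.05 and a fold over 2. Separate fits held the 4 shoot groups, the 2 root groups, and both organs of the ACC and KMBA plants. The p-values rest on the spread between replicates (3 biological replicates a group), pooled over all groups of a fit and moderated across genes. Shoot p-values therefore also depend on the groups not compared. The script was tested on simulated data. Each result was recomputed without a filter, with 0.1 as pseudocount, after median-ratio scaling, without the trend, with a replicate block, and without each library in turn. The pool was a covariate in the shoot comparisons only. A fit of the compared groups alone was added where 2 groups were compared within a larger fit.

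Members, role groups and companion lists were chosen with earlier results of these data known. Genes were given with all values by rule: called members, the 8 most abundant in each organ, the 6 largest organ changes, and list examples by lowest p. Members given beyond it (AT3G21770, AT4G37530, AT5G19880 and those with changes under 2-fold) were chosen after their values were seen. Names, coordinates and sequences came from RefSeq for TAIR10.1, which matched 26703 of 27371 IDs; the expression table holds no coordinates. Python 3.11.15, Biopython 1.88 and matplotlib 3.10.9 served for sequences and figures.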

Additional observations from a re-analysis of the deposited data

Results flagged for a closer look

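The difference between ACC and KMBA was tested between organs, as the change in roots minus the change in shoots on the log2(FPKM + 1) scale with limma. It passed adjusted p under 0.05 and 2-fold in 11 members. More positive in roots were AT5G19890 (4.41), AT1G49570 (3.52), Prx37, AT4G08770 (1.77), RHS19, AT5G67400 (1.25), AT4G11290 (1.18) and PRX2, AT1G05250 (1.02). These genes passed the filter through roots, and their highest values in any shoot library were between 0 and 1.23 FPKM. Their values therefore largely repeat the root difference and cannot show that the compound effect differs between organs. More negative in roots were PER4, AT1G14540 (-2.68), PRX71, AT5G64120 (-1.19), AT2G37130 (-1.18), PRXCA, AT3G49110 (-1.12) and PRX52, AT5G05340 (-1.01). PRXCA passed the filter through shoots (at most 0.500 FPKM in roots) and PRX52 through roots (at most 0.296 FPKM in shoots). The values of both largely repeat the difference in 1 organ. PRX52 kept its call in 6 of 17 alternatives, PRX2 in 12 and PRX71 in 13. PRX2 shares an identical coding sequence with AT1G05240 (0.95, not called), so its level cannot be assigned to 1 gene. With a pseudocount of 0.1 the values of Prx37 and AT4G11290 were 0.63 and 0.59, and neither was called. The root groups were each in a pool of their own, so compound and pool cannot be told apart in this difference. Groups of 3 libraries were too small to test for a single deviating library.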

How the results depend on the processing

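No called member changed direction under any alternative. With a pseudocount of 0.1, members called lower in ACC than KMBA roots were 2 in place of 1, those with a more positive organ difference 3 in place of 6, those higher and lower with KMBA against WT shoots 1 and 1 in place of 0 and 0, and those higher and lower with ACC against WT 2 and 1 in place of 1 and 0. Without a filter, 1 member in place of 2 was lower with SA187 and 2 in place of 1 higher with ACC against WT. Median-ratio scaling gave 1 lower with ACC against WT in place of 0. The pool as a covariate left 1 of 2 members higher in ACC than KMBA shoots, and a fit of the SA187 and WT groups alone left 0 of 2. Calls over all tested genes shifted too. With a pseudocount of 0.1 they went from 216 to 391 for ACC against KMBA roots and from 421 to 643 for the organ difference. Against WT they went from 485 to 778 with KMBA and from 769 to 1299 with ACC. Without a filter they went from 254 to 140 with SA187, and in the fit of the SA187 and WT groups alone to 10. The cause of these shifts was not tested.

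Leaving out 1 library at a time gave 4 to 8 members higher and 1 to 2 lower in ACC than KMBA roots, the lowest without KMBA root replicate 2 and the highest without ACC root replicate 3. It gave 42 to 43 higher and 4 to 5 lower in ACC roots than shoots, 44 and 3 throughout for KMBA, and 4 to 8 more positive and 2 to 6 more negative in the organ difference, the lowest without KMBA root replicate 2 and ACC shoot replicate 1. In shoots it gave 1 to 2 higher in ACC than KMBA, 0 to 3 lower with SA187, 0 to 1 higher and 0 to 2 lower with KMBA, and 1 to 2 higher and 0 to 1 lower with ACC, each against WT. Over all tested genes the same fits gave 187 to 213 calls for ACC against KMBA roots and 371 to 492 for the organ difference. For ACC against KMBA shoots they gave 51 to 184. Against WT they gave 12 to 725 with SA187, 279 to 987 with KMBA and 628 to 1216 with ACC.

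Samples of equal replicate number shared little of their deviation: 14 of 45 pairs had r above 0.1 (median 0.048, highest 0.318). The median was -0.027 for unlike numbers, and 20 of 45 matched their own number best. Between ACC and KMBA roots, r was 0.18, -0.057 and 0.22 for replicates 1, 2 and 3. With the replicate block, ACC against KMBA roots gave 224 calls in place of 216 over all genes, 6 and 1 of them members, and no called member lost its call. FPKM without depth limits what can be said of members listed near 0.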
